A study of Mus musculus with 5 samples.

Results

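Gcg, Pyy, Nts and Insl5 encode gut hormones best known from the distal intestine. They were taken here by name, as 4 genes of a droplet single-cell matrix, and 3 of them, Gcg, Pyy and Nts, are among the 22042 genes of a bulk table of sorted cells, where Insl5 is not listed. Gcg encodes proglucagon, which is cut into the glucagon-like peptides GLP-1 and GLP-2 in the gut. Pyy encodes peptide YY, a satiety peptide of L cells. Nts encodes neurotensin, the product of N cells, and Insl5 encodes an insulin-like peptide of colonic L cells. Enteroendocrine cells (EECs) are scattered hormone cells of the gut lining that sense nutrients and release such peptides to nerves and blood. A single EEC may make several of them, and its hormone set can change as it ages and moves up the villus.

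Intestinal epithelium of C57Bl/6J mice was measured in droplets and in bulk. For droplets, cells of the Neurog3 lineage were sorted by tdTomato from the small intestine of 4 Neurog3-Cre; R26-LSL-tdTomato mice aged 6 weeks, with no treatment, and pooled in 1 library. For bulk RNA-seq, tdTomato+ (CCK+) and tdTomato- (CCK-) cells were sorted from 6 Cck-Cre; R26-LSL-tdTomato mice aged 6 to 8 weeks, 3 of them fasted overnight and 3 fasted and then refed Ensure. The labels give refeeding with Ensure, whereas the methods describe the mice as fasted or fed, and a legend names duodenal epithelium where labels and methods name the small intestine. Each mouse gave 1 library of each kind, which makes 4 groups of 3 libraries. Neurog3-Cre marks every descendant of endocrine progenitors, goblet and Paneth cells included, and the Cck-Cre line also labels enteric neurons. A Cck-Cre label is permanent, so a CCK+ cell need not express Cck at the time of sorting. Libraries of the bulk table summed to between 7061155 and 11371114 normalized counts, a sum after scaling and not a depth in reads.

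The droplet library kept 9451 cells with over 1000 genes and under 10% of UMIs (unique molecular identifiers, 1 for each captured transcript) on mitochondrial genes, at a median of 5984 UMIs per cell. Of these, 4059 reached at least 1 of 5 hormone limits, set in UMIs per 10000 UMIs of the cell: Cck at 500 (1246 cells), Tph1, the serotonin synthesis enzyme, at 10 (2760 cells), Gip at 500 (197 cells), Ghrl at 500 (350 cells) and Sst at 500 (60 cells). They are called Cck-high, Tph1-high and so on, and 524 cells met more than 1 limit. As background, 3078 cells met no limit and held goblet cell markers at a sum of 4000 or more UMIs per 10000, a minimum set after their values were seen. With a single pooled library no test between cell groups was possible, and the intervals given for droplet values, all at 95%, cover counting error only.

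The genes lie on the minus strand of 4 chromosomes in the mouse build GRCm38 (GENCODE vM21), at chr2:62474530-62483650 for Gcg, chr11:102106676-102107832 for Pyy, chr10:102481756-102490486 for Nts and chr4:103017872-103026842 for Insl5. The stretches just before the 3 genes with appreciable counts are shown because the genes are transcribed in partly overlapping cells (RefSeq, GRCm38.p6, minus strand, 5′ to 3′). Capitals mark the letters TATA where they fall 40 to 20 bases before the start on the gene's strand.
Gcg, chr2:62483654-62483853: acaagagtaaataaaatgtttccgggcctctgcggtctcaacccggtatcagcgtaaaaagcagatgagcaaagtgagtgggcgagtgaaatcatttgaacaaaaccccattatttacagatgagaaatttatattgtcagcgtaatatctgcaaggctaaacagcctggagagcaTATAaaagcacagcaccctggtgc
Pyy, chr11:102107833-102108032: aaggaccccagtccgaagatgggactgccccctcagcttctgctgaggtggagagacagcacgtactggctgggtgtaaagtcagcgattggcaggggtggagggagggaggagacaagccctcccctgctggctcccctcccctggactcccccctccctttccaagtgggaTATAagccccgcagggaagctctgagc
Nts, chr10:102490487-102490618: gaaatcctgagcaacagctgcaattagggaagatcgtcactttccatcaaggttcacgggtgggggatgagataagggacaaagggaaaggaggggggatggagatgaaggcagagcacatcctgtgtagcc

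The Gcg and Pyy stretches hold TATA 24 and 27 bases before the RefSeq start. The printed Nts stretch ends where the GENCODE transcript begins, 69 bases before the RefSeq start. The window before the Nts RefSeq start therefore lies outside it, and no TATA was found there. Of 32851 RefSeq promoters, 5.34% hold TATA in this window. The match is a matter of letters and was chosen with the sequences in view.

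In bulk, the question was whether the traced CCK+ cells carry these hormones at all. They did, and every CCK+ library lay far above every CCK- library. Gcg reached 7896, 4945 and 11229 normalized counts in the CCK+ libraries of fasted mice A, B and F, and 10354, 10184 and 6316 in those of refed mice C, D and E. The CCK- libraries of the same mice held 18.9, 5.58 and 26.2 Gcg counts when fasted, and 20.4, 34.9 and 11.0 when refed. The difference was 8.83 on the log2(normalized count + 1) scale (SE 0.34, limma with 1 mean per group, Benjamini-Hochberg adjusted p = 2.66e-10), a 456-fold higher level.

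Nts stood at 2605, 2261 and 2163 normalized counts in CCK+ libraries of the fasted mice and at 6479, 7116 and 3796 in those of the refed mice. In CCK- libraries it was 26.6, 9.72 and 13.4 when fasted and 8.88, 7.41 and 2.98 when refed. The log2 difference between CCK+ and CCK- was 8.42 (SE 0.26, limma adjusted p = 5.94e-11), or 341-fold. All 6 CCK+ libraries lay above all 6 CCK- libraries.

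Pyy was the least enriched of the 3 hormones. CCK+ libraries held 713, 378 and 705 normalized counts of Pyy in fasted mice and 855, 1606 and 1062 in refed mice, against 4.25, 8.41 and 8.78 and then 3.56, 5.87 and 7.08 in CCK- libraries. The log2 difference was 6.84 (SE 0.26, limma adjusted p = 1.72e-10), which is 115-fold. All 3 listed members were thus called higher in CCK+, where 19.6% of the 22042 genes tested were called in that direction. In these pools a smaller number of cells of a type and less RNA per cell cannot be told apart.

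**Figure D1:**
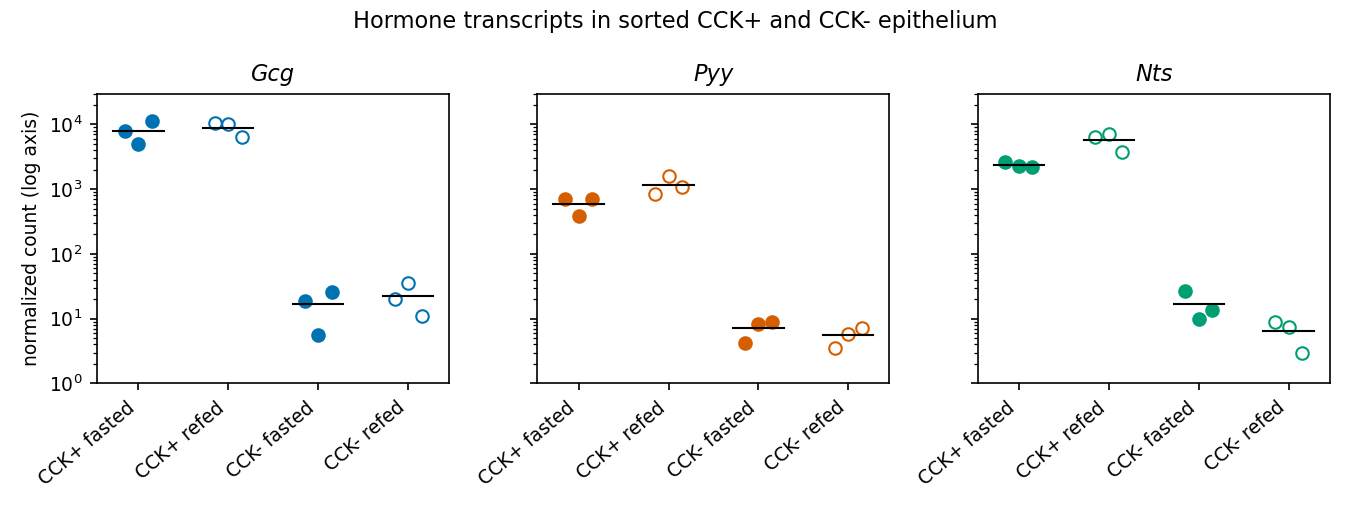
Normalized counts (log axis) of Gcg, Pyy and Nts in each of the 12 bulk libraries, by group. Points are libraries, filled for fasted and open for refed mice, and bars are means of 3. Every CCK+ library lies above 300 counts and every CCK- library below 40.

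Cck, the gene whose Cre sorted the cells, gave a yardstick within each library. Its own log2 difference was 8.81 (SE 0.22). The ratio of Gcg to Cck lay between 31.8 and 44.9% in CCK+ libraries and between 8.55 and 116% in CCK- libraries (two-sided exact permutation test of the log2 ratio, by sign changes within 6 mice, p = 0.812). Nts to Cck ran from 8.65 to 27.3% and from 10.8 to 61.6% (exact permutation p = 0.75). For Pyy the ratio was 2.49 to 7.16% in CCK+ libraries and 7.11 to 25.6% in CCK- libraries, that is 3.42-fold higher in the CCK- cells by the mean of its log2 (lower in CCK+ in 6 of 6 mice, exact permutation p = 0.0312, the smallest that 6 mice allow, and 0.0936 after Benjamini-Hochberg adjustment over the 3 ratios, which does not pass). The ranges met at a single library on each side. The CCK- ratios rest on low normalized counts, 3.56 to 8.78 of Pyy and 27.6 to 86.0 of Cck. Ratios of counts between genes depend on transcript length, so only the same ratio may be compared between groups.

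In refed against fasted mice no member passed the test in CCK+ cells, 0 of 3 beside 2.55% of all genes called in either direction, while Nts and Pyy had higher counts in every refed library than in any fasted one. For Nts the log2 difference was 1.26 (95% interval 0.46 to 2.06, limma adjusted p = 0.0945). Where all libraries were rescaled to the same sum, it was 1.48 with an adjusted p of 0.0487, which passes. That rescaling also moves the median of all genes from 0.01 to 0.20. For Pyy the difference was 0.98 (0.20 to 1.75, limma adjusted p = 0.183), and for Gcg 0.20 (-0.84 to 1.24, adjusted p = 0.883), with overlapping Gcg groups.

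In CCK- cells the refeeding differences again did not pass (0 of 3, with 1.23% of all genes called). Nts was lower in every refed CCK- library than in any fasted one, at a log2 difference of -1.23 (-2.03 to -0.43, limma adjusted p = 0.148). Pyy gave -0.31 (limma adjusted p = 0.841) and Gcg 0.46 (adjusted p = 0.825). The difference between the CCK+ and CCK- responses was 2.49 for Nts (1.36 to 3.62, limma adjusted p = 0.46), 1.29 for Pyy (adjusted p = 0.752) and -0.26 for Gcg (adjusted p = 0.948), in a test that called 0.00454% of genes.

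The separation of Nts between states was also present relative to Cck. Nts to Cck was 12.9, 14.9 and 8.65% in fasted mice A, B and F and 19.9, 27.3 and 25.6% in refed mice C, D and E. These groups did not overlap, and the ratio was 2.03-fold higher in refed mice by the mean of its log2, but an exact permutation test of 3 against 3 cannot go below 0.1, the p it gave. Gcg to Cck overlapped between states (32.6 to 44.9% fasted, 31.8 to 42.6% refed, exact permutation p = 0.7). Pyy to Cck overlapped too, since mouse C at 2.62% lay among the fasted values of 2.49 to 3.54%.

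General endocrine markers were read beside these values. The summed EEC markers (Chga, Chgb, Neurod1, Scg2, Scg5, Pcsk1 and Fev, of which 7 of 7 are in the table) ran from 64339 to 145062 normalized counts in fasted and from 173313 to 236485 in refed CCK+ libraries, without overlap. None of the 7 passed the refeeding test, and neither did any of the 10 co-released hormone and serotonin genes. Their part in the Nts and Pyy differences was not tested.

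**Figure D2:**
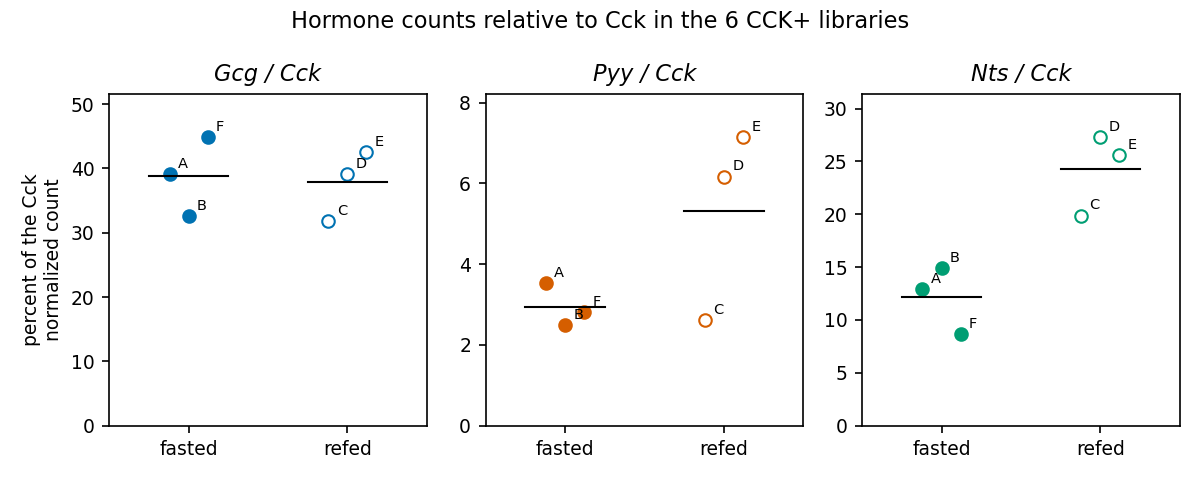
Gcg, Pyy and Nts normalized counts as a percent of the Cck normalized count in the same library, for the 6 CCK+ libraries (letters are mice, bars are means of 3, axes start at 0). Only the Nts panel shows fasted and refed libraries apart, at 8.65 to 14.9% and 19.9 to 27.3%.

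Glucagon and peptide YY are also hormones of the pancreatic islet, so pancreatic genes were read in the same libraries. Ins1 and Ins2, the insulin genes, were listed at 0 in 5 of 6 CCK+ libraries and at 356 and 161 normalized counts in that of refed mouse E. Cpa1, an acinar enzyme, was at 267 in the CCK+ library of fasted mouse A and was listed at 0 in all others. Gcg counts of mice E and A, 6316 and 7896, lay within the range of the other CCK+ libraries. Immune markers were higher in CCK+ cells for 5 of 6 genes, though their sums overlapped (3699 to 9109 in CCK+ and 2712 to 9144 in CCK-), and Ptprc, the pan-leukocyte gene, ran from 636 to 1678 and from 44.3 to 113. Enteric neuron markers, some of which EECs also express, were higher for 4 of 6, with sums of 1197 to 3829 in CCK+ and 37.8 to 87.8 in CCK- libraries. Elavl4, a neuronal RNA-binding protein gene, lay between 0.55 and 4.42 in CCK+ libraries and was listed at 0 in CCK- libraries. What these cells contributed to the hormone counts was not tested.

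Genes of the hormones' life cycle were read from lists. Of 10 hormones and serotonin genes that may be co-released, 10 were higher in CCK+ cells (median log2 difference 6.43, beside 0.09 over all genes). Gip at 8.84, Cck at 8.81, Sct, the secretin gene, at 7.38 and Ucn3 at 6.84 led them. All 11 prohormone processing and granule genes were higher too (median 6.06), led by Scg2 at 8.36. Pcsk1 encodes the convertase PC1/3, which releases GLP-1 from proglucagon, and it differed by 4.62 (1720 ± 596 normalized counts in fasted CCK+, SD, n = 3). Pcsk2 encodes PC2, which makes glucagon in the islet, and it differed by 1.59 at a far lower count (39.6 ± 18.1).

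All 16 transcription factors of EECs were higher in CCK+ cells (median log2 difference 5.84). Etv1 led at 8.12, followed by Nkx2-2 at 7.06, Isl1 at 6.59 and Rfx6 at 6.56. Pax6, which binds the proglucagon promoter, differed by 4.07. Of 13 nutrient sensing genes 10 were higher, led by the calcium and amino acid receptor gene Casr at 6.50, Kcnj11 at 6.34, Abcc8 at 5.67 and Ffar2 at 5.60. Slc5a1 and Slc15a1, the glucose and peptide transporters of the brush border, were lower, at -1.50 and -1.03. These 2 were also lower in refed than in fasted CCK+ cells, by -1.02 and -1.44 on the log2 scale (limma adjusted p = 0.0391 and 0.00363), and so was Ace, by -1.25. None of these calls was made when CCK+ libraries were fitted alone, where limma called 0 genes (3190 at an unadjusted p under 0.05). Enterocyte markers summed to between 156642 and 266058 normalized counts in fasted and between 102049 and 171239 in refed CCK+ libraries, and their part in these differences was not tested. No other gene of the 6 lists of hormone function was called in that contrast.

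The receptors for the 4 hormones were sparser. The table lists 8 of 12, and 4 were higher in CCK+ cells. Glp1r, the GLP-1 receptor gene, led with 4.75 (1376 and 2239 normalized counts on average in fasted and refed CCK+ libraries, 54.0 and 73.4 in CCK-), then Npy1r with 2.72, Ntsr2 with 2.17 and Sort1 with 0.60. Rxfp4, the INSL5 receptor gene, stayed at or below 3 counts on average in every group. In droplets Glp1r gave 1 UMI in 463 Gcg-high cells (defined in the next paragraphs) and 8 UMIs in 2666 EECs high in none of the hormones. Npy2r and Ntsr1 gave no UMI in these cells. Of 6 peptidases that cleave such hormones 3 were lower in CCK+ cells, a direction called for 14.1% of all genes, Mme by -1.72, Dpp4, which inactivates GLP-1, by -1.40 and Ace by -0.96, and Prep was higher by 0.73.

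Regional genes were read in the same cells, since the 4 hormones are best known from distal gut. Duodenal factors (Pdx1, Gata4 and Onecut2) summed to between 3511 and 4350 normalized counts in CCK+ libraries and ileal markers (Fabp6, Slc10a2 and Osr2) to between 132 and 404. CCK- libraries held 4910 to 6834 and 257 to 416. Of the 4 colonic markers 2 are in the table, and they summed to between 55.8 and 254 in CCK+ and between 95.4 and 503 in CCK- libraries. In droplets, Gcg-high cells held 1.65 UMIs per 10000 of Onecut2, 0.29 of Gata4 and 0.12 of Pdx1, with 1 UMI of Fabp6, 0 of Slc10a2, 8 of Osr2 and, of the colonic markers given here, 0 of Car1, Hoxb13 and Hoxd13 over 463 cells. Fabp6 and Slc10a2 are enterocyte genes, which limits what they show of EECs.

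In single cells the 3 hormones spread over the endocrine groups in different ways. Gcg and Nts lay mostly with Cck, while Pyy was spread over Cck-high, Tph1-high and smaller groups of cells. Cck-high cells held 85.2% of all Gcg UMIs, 74.6% of Nts UMIs and 31.7% of Pyy UMIs. Tph1-high cells, some of which are also Cck-high, held 6.97, 20.5 and 49.6% of them. Cells that met no limit held 11.6, 22.5 and 12.1%, and 5 of these cells held 48.7% of the Nts UMIs found there.

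Gcg reached 26.05 UMIs per 10000 (25.6 to 26.5) in the 779 cells that were high in Cck alone and 27.99 (26.97 to 29.03) in the 165 cells high in Cck and Ghrl. These neighbors swapped places at 22.2 and 18.2 once the 5 highest cells of each group were left out. It was 6.98 (6.57 to 7.40) in 238 cells high in Cck and Tph1, and 0.24 (0.21 to 0.27) in 2454 cells high in Tph1 alone. Goblet-marker cells gave 0.16 (0.14 to 0.17). In the 134 cells high in Ghrl alone the level was 3.28, but 5 cells held 96.7% of those UMIs and without them it was 0.11. Cells high in Gip alone gave 0.39, and the 60 Sst-high cells held 5 Gcg UMIs in all.

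Nts was highest where Cck and Tph1 met. It stood at 73.3 UMIs per 10000 (72.02 to 74.69) in Cck- and Tph1-high cells, 65.7 (65.0 to 66.4) in cells high in Cck alone and 41.2 in Cck- and Ghrl-high cells. Without the 5 highest cells of each group the first and second were level, at 60.4 and 61.0. Cells high in Tph1 alone gave 1.84 (1.76 to 1.93), above the 0.86 (0.82 to 0.90) of goblet-marker cells, whereas those high in Ghrl, Gip or Sst alone gave 1.05, 0.55 and 0.94.

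Pyy followed another order. Cells high in Cck alone and in Tph1 alone had the same level within counting error, 22.8 (22.4 to 23.2) and 22.6 (22.3 to 22.9) UMIs per 10000. Cck- and Ghrl-high cells gave 10.4, Cck- and Tph1-high cells 9.37 and cells high in Gip alone 9.12. Without the 5 highest cells of each these were 6.41, 6.36 and 4.41, against 0.63 (0.60 to 0.67) in goblet-marker cells. The 60 Sst-high cells reached 110.1 (106.6 to 113.7), of which 5 cells held 76.9% of the UMIs, and without them the level was 27.7. The 35 of them that met no other limit gave 178.9, or 33.1 without their 5 highest cells. The 134 cells high in Ghrl alone, at 0.88 (0.71 to 1.08), lay little above the goblet-marker cells. All 350 Ghrl-high cells, those also high in Cck included, gave 6.04, or 3.87 without their 5 highest cells.

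**Figure D3:**
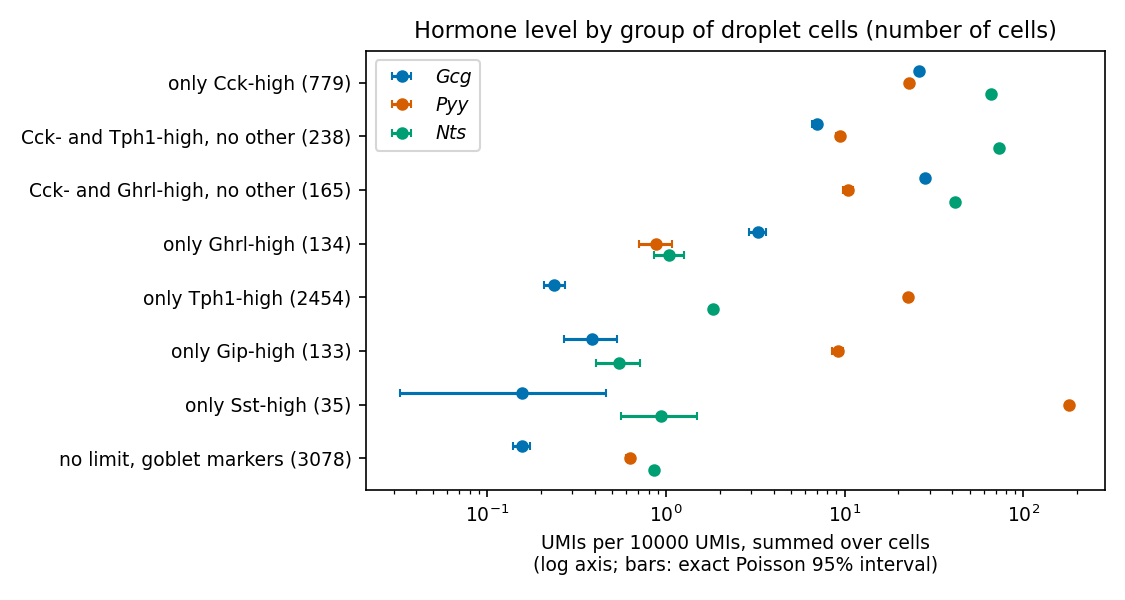
Summed UMIs per 10000 UMIs (log axis) of Gcg, Pyy and Nts in groups of droplet cells that do not overlap, with exact Poisson 95% intervals (counting error only; 1 library) and the number of cells in parentheses. Gcg and Nts are high in the 3 groups with Cck, and Pyy is as high in cells with Tph1 alone as in cells with Cck alone, at 22.6 and 22.8.

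Shares of cells depend on depth, so cells were also thinned at random to 2000 UMIs, which left out 58 shallower cells, all of them high in Tph1 alone. In cells high in Cck alone (median 6253 UMIs) 75.0% held a Gcg UMI (71.8 to 78.0%, exact binomial), 58.3% a Pyy UMI and 74.8% an Nts UMI, and after thinning 60.6, 41.6 and 62.1%. Goblet-marker cells, which should lack all 3 and had a median of 6708 UMIs, gave 9.13, 28.7 and 37.3%, and 2.60, 9.91 and 13.7% after thinning. Barcodes with 1 to 100 UMIs, taken as free RNA, held 1.80 Gcg, 4.22 Pyy and 6.98 Nts UMIs per 10000. In the 2396 thinned cells high in Tph1 alone (median 3208 UMIs over all 2454) the shares were 3.59% for Gcg, 32.1% for Pyy and 17.9% for Nts. The Gcg share there, 2.88 to 4.41%, was close to the background interval of 2.07 to 3.22%.

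Insl5 was all but absent. A single UMI was found in 9451 cells, in a cell high in Cck alone, which is 0.0106% of cells (0.000268 to 0.0589%, exact binomial). None was seen in 2760 Tph1-high cells, which allows a share of up to 0.109% with a UMI by the 3-count limit. Free RNA held no Insl5 UMI either.

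Most UMIs of each hormone sat in few cells. A cell with at least 3 UMIs and at least 10 UMIs per 10000 of a hormone is called high in it. There were 463 Gcg-high, 852 Pyy-high and 695 Nts-high cells, together 1489, and they held 90.4, 91.2 and 93.1% of the UMIs of their hormone. Median levels in them were 27.4, 50.2 and 70.6 UMIs per 10000 and the highest 898, 2263 and 3850. The cell with the highest Nts level met no hormone limit, and the highest among Cck-high cells was 1168. The limit is not a gap in the distribution, since 53 Gcg cells lay between 10 and 12 UMIs per 10000 and 45 between 8 and 10. Goblet-marker cells were high in Gcg, Pyy and Nts in 0.0325, 0.260 and 0.292% of cases.

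Gcg-high cells were nearly all Cck-high, 435 of 463 or 94.0% (91.4 to 95.9%). Nts-high cells were Cck-high in 88.5% (85.9 to 90.8%) and Tph1-high in 25.6%. Pyy-high cells divided, with 57.7% (54.3 to 61.1%) Tph1-high and 36.5% (33.3 to 39.8%) Cck-high. Of the 852, 39 were Ghrl-high, 37 Gip-high and 25 Sst-high, where a cell may meet more than 1 limit, and 46 met none. None of the 463 Gcg-high or 695 Nts-high cells was Sst-high. The split of Pyy-high cells depended on depth. Among the 511 Pyy-high cells over the UMI limit that Cell Ranger 2 would set, 37.8% were Tph1-high, since cells with Tph1 are shallower.

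Co-detection separated the pairs. Of 1246 Cck-high cells, 43.0% (40.3 to 45.8%) held both Gcg and Pyy, 51.1% (48.3 to 53.9%) both Gcg and Nts, and 41.2% (38.4 to 44.0%) both Pyy and Nts. Within Cck-high cells the pair of Gcg and Pyy stood apart from the others. After thinning, 54.5% (50.5 to 58.3%) of Cck-high cells with Gcg held Pyy, against 19.5% (16.4 to 22.9%) of those without Gcg. The same contrast for Nts was small, 63.4% (59.6 to 67.1%) of cells with Gcg and 56.9% (52.8 to 60.9%) of cells without. Nts was found in 65.1% (60.6 to 69.4%) of cells with Pyy and in 57.3% (53.8 to 60.9%) of cells without. Over the 4001 thinned cells that met a limit the order was another. There Nts was in 57.4% of cells with Gcg and 24.1% of cells without, and Pyy in 51.9 and 29.3%.

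At a minimum of 3 UMIs the pattern of Cck-high cells held. In Cck-high cells 52.5% (48.4 to 56.6%) of Gcg cells then held Pyy, and 13.8% (11.2 to 16.7%) of the rest. Nts was in 59.2% of Gcg cells and 50.5% of the rest. The 2396 cells high in Tph1 alone that could be thinned were read after thinning, at a minimum of 1 UMI. There Nts differed little with Pyy, as it was in 16.7% (14.1 to 19.5%) of cells with Pyy and 18.5% (16.6 to 20.5%) of cells without. Both shares lay not far above the 13.7% of thinned goblet-marker cells. Only 30 of the 2396 cells held both Gcg and Pyy.

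By the high limit, 551 cells were high in Pyy alone, 404 in Nts alone and 124 in Gcg alone. A further 119 were high in Gcg and Pyy, 109 in Gcg and Nts and 71 in Pyy and Nts, and 111 were high in all 3, which is 7.45% of the 1489. So 49.7% of Gcg-high cells were also Pyy-high and 47.5% also Nts-high. Seen from the other side, 230 of 852 Pyy-high and 220 of 695 Nts-high cells were Gcg-high. Gcg-high cells were nearly all Cck-high, and of all 1246 Cck-high cells 24.96% were Pyy-high and 49.36% Nts-high. The Pyy share of Gcg-high cells thus lay above that of Cck-high cells, and the Nts share lay close to it. Among the 111 triple cells 110 were Cck-high and 15 Tph1-high, while 446 of the 551 cells with Pyy alone were Tph1-high.

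**Figure D4:**
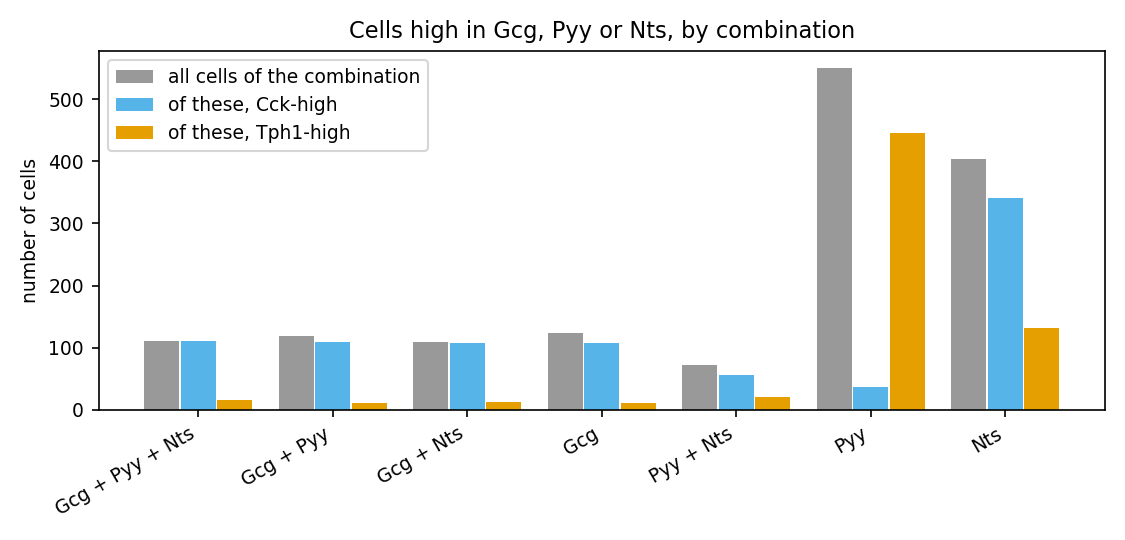
Number of droplet cells high in each combination of Gcg, Pyy and Nts (at least 3 UMIs and 10 UMIs per 10000 of each), with the numbers that are also Cck-high or Tph1-high; a cell may be both. The 551 cells with Pyy alone are mostly Tph1-high, and all other combinations mostly Cck-high.

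Depth and doublets were read beside these counts. Triple cells had a median of 5802 UMIs, cells with Nts alone 6468 and cells with Pyy alone 3635. The 715 cells with the highest Scrublet doublet scores included 16.2% of triple cells, 16.4% of double cells, 14.6% of single cells and 28.4% of cells that were both Cck-high and Tph1-high, compared with 7.57% of all cells. None of the 25 Pyy-high cells that were Sst-high was among them. Without those 715 cells, 93 triple cells were left, and 47.3% of Gcg-high cells were also Pyy-high. Summed goblet markers reached 1000 UMIs per 10000 in 15.8% of Gcg-high, 24.4% of Pyy-high and 20.4% of Nts-high cells, and without such cells the Gcg-high cells were Pyy-high in 48.5%. The part of doublets in the overlap was not tested.

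The cells that made these hormones shared much else. Gcg-high cells held 1510 UMIs per 10000 of Cck, 1192 of Sct and 228 of Ghrl, and Nts-high cells 1336, 1320 and 215. These sets share 220 cells and are mostly Cck-high, and all Cck-high cells together held 1537 of Cck and 1221 of Sct. The cells with 3 hormones had the highest Sct level of the 7 combinations, 1631 (1622 to 1641). Pcsk1 was at 2.86 in Gcg-high cells (2.67 to 3.06, in 77.5% of cells), and Pcsk2 at 0.02 with 6 UMIs in 463 cells. In Pyy-high cells Pcsk2 was at 0.21 (0.17 to 0.26).

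Pyy-high cells with Cck and those with Tph1 differed in both directions. Of 11 processing and granule genes, 2 were higher with Cck and 6 higher with Tph1 by intervals that did not overlap, of 16 transcription factors 6 and 4, and of 13 sensing genes 4 and 1. The share of all genes that separate this way was not computed, so the counts show nothing particular to these lists. The median summed level of EEC markers was 197.7 UMIs per 10000 with Cck and 416.6 with Tph1. Sct stood at 1432 and 841 and Pcsk1 at 2.45 and 4.29. Their Cck and Tph1 levels follow from the limits. The 267 that were Cck-high but not Tph1-high held 1563 UMIs per 10000 of Cck, 1.43 of Tph1 and 33.0 of Scg2. The 448 that were Tph1-high but not Cck-high held 26.4, 44.2 and 1.06. Etv1 was at 2.61 in the former and 0.12 in the latter, Isl1 at 2.00 and 0.12 and Pax6 at 1.07 and 0.36. The fatty acid receptor gene Ffar1 was at 2.10 and 0.05. Cck-high and Tph1-high cells without a high hormone differed in the same direction, with Etv1 at 1.55 and 0.17 and Ffar1 at 0.84 and 0.07.

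**Figure D5:**
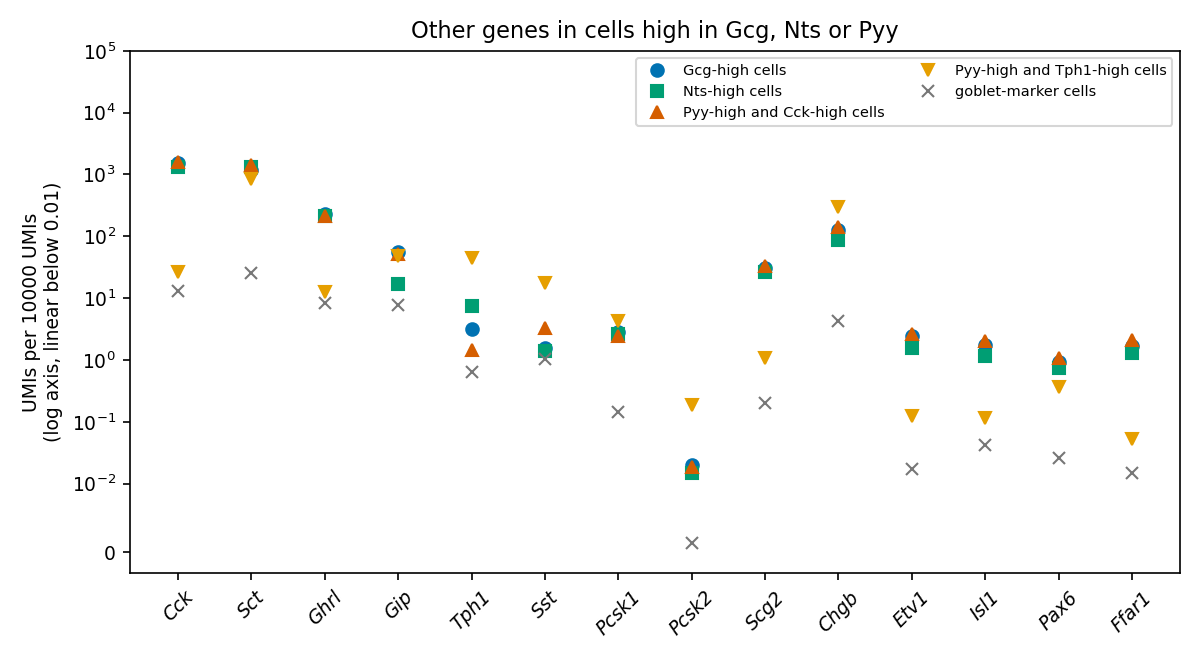
UMIs per 10000 UMIs (log axis, linear below 0.01) of 14 genes in Gcg-high, Nts-high and 2 kinds of Pyy-high cells and in goblet-marker cells; 1 point is the sum over the cells of a group. Pyy-high cells with Cck lie with Gcg-high cells, and those with Tph1 lie lower for Etv1, Isl1 and Ffar1. The hormone-high groups share cells, since 230 cells are both Gcg-high and Pyy-high, so their likeness is in part that of the same cells.

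Over the 4059 cells that met a limit, genes were ranked by how closely their level followed each hormone (Pearson's r of ln(UMIs per 10000 + 1), 10652 genes, given as a description because cells share 1 library and depth). These cells were chosen by limits that include Cck. The r of Cck, and of genes that differ between Cck-high and Tph1-high cells, is in part set by that choice. Gcg was followed by Cck (r = 0.61), the granule gene Scg2 (0.58), Ffar1 (0.51), Etv1 (0.51) and Fars2 (0.47). Nts was followed by Cck (0.56), Scg2 (0.52), Sct (0.40), Qpct, a glutaminyl cyclase gene (0.39), and Rbp4 (0.38). For Pyy the highest values were low, Gcg at 0.26 and Sct at 0.20, with Rpl36a, Foxq1 and Prap1 at about 0.16. Between members r was 0.36 for Gcg and Nts, 0.26 for Gcg and Pyy and 0.05 for Pyy and Nts.

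Droplets and bulk pools gave different balances of the hormones to Cck. In Cck-high droplet cells Gcg UMIs were 1.41% of Cck UMIs, Pyy 1.17% and Nts 4.02%, while in CCK+ bulk libraries the lowest ratios of counts were 31.8, 2.49 and 8.65%. The Cck-high cells were selected by their Cck level, and the bulk pools were not. Over all droplet cells the ratios were 1.52% for Gcg, 3.39% for Pyy and 4.95% for Nts. Of these only the Pyy ratio lay above its lowest bulk ratio. The assays differ in mice, Cre line, sort, set of cells, capture of transcripts and counting, and these cannot be told apart here.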

How the data were processed

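Droplet counts are UMI counts that the authors made with Cell Ranger 2.0.1 (mm10). The bulk signal is gene counts that the authors made with Trim Galore 0.6.7, Salmon 1.6.0 (GRCm39) and tximeta, divided by DESeq2 normalization factors and deposited as normalized counts that are not whole, so the depth in reads is unknown. Groups follow the cell type and treatment labels, since all bulk titles read CCK+, and the table gives 3 lettered mice under each group's single label.

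All 22042 bulk genes were fitted as log2(value + 1) with limma 3.58.1 in R 4.3.3 (4 group means, mean-variance trend, Benjamini-Hochberg adjustment, threshold 0.05). Same-mouse libraries deviated together weakly (r 0.0463 to 0.065), and a fit with the mouse as a block was an alternative. Droplet sums used numpy 2.4.6 and scipy 1.17.1 with exact Poisson or binomial 95% intervals, and doublet scores used Scrublet in scanpy 1.11.5. The limma test of refed against fasted CCK+ libraries was checked on simulated data, and the other tests were not. Genes named are the 4 hormones, up to 4 leading genes of each list with those of a stated role, and the 5 most like each hormone. Members and lists were chosen with earlier results of these data known. Values of some listed genes are not reported here. The ratio test paired by mouse was chosen after seeing the data.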

Additional observations from a re-analysis of the deposited data

Results flagged for a closer look

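The refeeding difference of Nts was higher in CCK+ than in CCK- cells by 2.49 on the log2 scale (95% interval 1.36 to 3.62). Nts was higher in all 3 refed CCK+ libraries than in any fasted one, and lower in all 3 refed CCK- libraries than in any fasted one. The limma adjusted p of this difference over all genes was 0.46, so it did not pass the correction, and CCK- values of 2.98 to 26.6 normalized counts lie near the floor of the table.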

How the results depend on the processing

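No alternative ended or reversed the higher level of Gcg, Pyy and Nts in CCK+ cells, and without 1 library each they differed by 8.53 to 9.04, 6.70 to 6.99 and 8.22 to 8.61 on the log2 scale. With the mouse as a replicate block (pairing by mouse), 7671, 576, 283 and 1 genes were called in the 4 comparisons, against 7431, 561, 272 and 1 without it, and no call of a hormone changed. In fasted libraries alone CCK+ and CCK- differed in 2169 genes. The refeeding count in CCK+ cells was 119 with no trend, 0 when CCK+ libraries were fitted alone in limma (3190 at an unadjusted p under 0.05), and 103 to 876 without 1 library each, the extremes being mouse D and mouse A, with 193, 351 and 183 without mice B, F and E. That in CCK- cells was 66 with no trend, 63 in CCK- libraries alone and 79 to 144 without any 1 of the 6 libraries. The count for the difference of responses was 2 with no trend and 1 to 6 without 1 library. Nts in refed CCK+ cells was 1.48 with libraries rescaled to the same sum. Without 1 library each, Gcg ran from -0.11 to 0.48 in refed CCK+ cells, from -0.15 to 0.87 in refed CCK- cells and from -0.67 to 0.35 for the difference of responses. The causes were not tested.

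In Cck-high droplet cells Gcg, Pyy and Nts stood at 20.4, 17.0 and 63.5 UMIs per 10000 over 1500 genes, 20.8, 17.5 and 63.7 over the Cell Ranger UMI limit, 24.2, 18.5 and 69.3 with limits doubled, 26.05, 22.8 and 65.7 in cells that met 1 limit, and 24.7, 18.9 and 70.6 without cells with goblet markers at 1000 or more. Gcg and Nts were 20.9 and 64.1 under 5% mitochondrial UMIs, 21.1 and 60.8 with limits halved, and 23.4 and 66.4 without the highest doublet scores. The last and the goblet setting were chosen after seeing the data. Cells with Gcg and Pyy, Gcg and Nts, and Pyy and Nts made up 50.3, 59.2 and 44.9% of cells that met 1 limit, 25.3, 28.5 and 19.3% at 3 UMIs and 28.4, 33.1 and 24.6% after thinning to 2000 UMIs. A single library gives these values no error between animals.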
